A study of Mus musculus with 34 samples.

Results

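Acute-phase serum proteins are plasma proteins whose secretion by the liver changes after injury, infection or surgery. Here 8 genes that encode such proteins, chosen by name, were followed in mouse liver after partial hepatectomy (PHx). They were *Saa1*, *Saa2* and *Saa3* (serum amyloid A), *Orm1* and *Orm2* (alpha-1 acid glycoprotein), *Lcn2* (lipocalin 2), *Hp* (haptoglobin) and *Hpx* (hemopexin). All 8 were among the 14980 genes tested, of 78298 in the deposited table.

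The livers came from male mice on a C57/Bl6 background that were 8 to 12 weeks of age. SIRT1intKO mice carried floxed *Sirt1* together with Villin-Cre, which is active in the intestinal epithelium, so the deletion was intestinal. The controls, named WT, were littermates that also carried floxed *Sirt1* and lacked the Cre. PHx removed the left lateral and median lobes, liver tissue was taken 6 or 24 hours later, and 0-hour mice were untreated. The lobe sampled is not given in the sources used here. A sham-operated group was not analysed here, so surgery as such and loss of tissue cannot be told apart. WT livers numbered 6, 6 and 4 and SIRT1intKO livers 6, 5 and 7 at these times, each a library of 14892098 to 23480480 counts (median 16807329). The 0-hour libraries carry a number series of their own in the labels, so a change from 0 hours and a difference between the series cannot be told apart, whereas the later times share a series. Values are CPM, read counts scaled to a common library size with TMM factors (trimmed mean of M values), which lay outside 0.8 to 1.2 in 4 libraries, WT 6-hour replicate 6 and SIRT1intKO 24-hour replicates 5, 6 and 7. In whole tissue, fewer cells of a type and less RNA per cell cannot be told apart. All 10 hepatocyte markers examined were detected in all 34 libraries.

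The acute-phase response is switched on in hepatocytes by cytokines. Interleukin 6 signals through gp130 and the transcription factor STAT3, interleukin 1 and tumor necrosis factor act through NF-kB, and C/EBP factors bind many of the same promoters. *Saa1* and *Saa2* encode apolipoproteins carried on high-density lipoprotein, while *Saa3* is also made by macrophages and fat cells. Alpha-1 acid glycoproteins bind drugs and steroids in plasma. Lipocalin 2 captures bacterial siderophores and so withholds iron, and it is also stored in neutrophil granules. Haptoglobin binds free hemoglobin for uptake by CD163, and hemopexin binds free heme for uptake by LRP1.

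Promoter sequences of 4 of the genes are shown because the genes moved together after PHx and because *Saa1* and *Saa2* carry nearly the same promoter. Each runs from 250 bases before to 50 bases after the annotated start, 300 bases on the gene's own strand, taken from RefSeq on GRCm38.p6. The labels name GRCm39 for the counts, and no coordinate was converted. The capitals mark the letters TTGCNNAA, a C/EBP-type motif, searched on both strands.
*Saa1* (chr7:46742931-46743230, minus strand): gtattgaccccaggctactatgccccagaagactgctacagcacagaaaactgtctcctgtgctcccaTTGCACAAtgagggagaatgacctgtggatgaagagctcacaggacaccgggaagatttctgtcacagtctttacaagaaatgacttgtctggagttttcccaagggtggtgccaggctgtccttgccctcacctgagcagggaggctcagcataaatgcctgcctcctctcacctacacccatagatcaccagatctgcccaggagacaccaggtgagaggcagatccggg
*Saa2* (chr7:46751583-46751882, plus strand): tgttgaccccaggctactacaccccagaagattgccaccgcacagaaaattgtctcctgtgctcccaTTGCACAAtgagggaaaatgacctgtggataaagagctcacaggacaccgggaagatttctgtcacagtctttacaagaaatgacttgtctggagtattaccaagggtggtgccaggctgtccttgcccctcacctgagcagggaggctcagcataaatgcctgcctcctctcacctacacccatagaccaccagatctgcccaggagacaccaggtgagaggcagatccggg
*Orm2* (chr4:63362199-63362498, plus strand): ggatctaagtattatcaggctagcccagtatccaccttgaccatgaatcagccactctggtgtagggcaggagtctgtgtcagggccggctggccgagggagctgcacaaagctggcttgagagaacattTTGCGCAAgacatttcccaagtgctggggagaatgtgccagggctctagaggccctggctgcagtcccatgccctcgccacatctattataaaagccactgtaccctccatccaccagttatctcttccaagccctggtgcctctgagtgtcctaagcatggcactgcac
*Hpx* (chr7:105600067-105600366, minus strand): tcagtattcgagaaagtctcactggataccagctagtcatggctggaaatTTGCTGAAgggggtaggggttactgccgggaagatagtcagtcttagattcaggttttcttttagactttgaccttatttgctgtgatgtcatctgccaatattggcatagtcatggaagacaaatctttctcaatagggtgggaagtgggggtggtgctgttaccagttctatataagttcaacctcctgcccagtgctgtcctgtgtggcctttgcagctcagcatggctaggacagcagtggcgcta
The *Saa1* and *Saa2* stretches, which point away from each other on chromosome 7, were 95.3% identical, and those of *Saa1* and *Saa3* were 50.1% identical. RefSeq promoters were matched for 6 of the 8 genes, *Saa1*, *Saa2*, *Saa3*, *Orm2*, *Lcn2* and *Hpx*. Each of the 6 held 1 match to TTGCNNAA, against 10.8% of 32851 mouse promoters of the same length. With nearly the same promoter, *Saa1* and *Saa2* are not separate cases. The motif was not particular to the 8 genes. Their relatives *Saa4* and *Orm3* held 2 and 1 matches, and *Saa4* was not called higher at 6 hours after PHx in either genotype. Counted from the start site, the matches began at -182 in *Saa1*, -183 in *Saa2*, -99 in *Saa3*, -120 in *Orm2*, -216 in *Lcn2* and -200 in *Hpx*. A STAT-type motif, TTCNNNGAA, was in 0 of the 6 and in 8.3% of all promoters, and an NF-kB-type motif was in 0 of the 6 and in 4.79%. These matches describe letters in a short window and say nothing on binding.

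Before surgery the 8 genes already spanned a wide range of levels. Per kilobase of transcript, untreated WT livers had the most *Hp*, 2491 ± 708 CPM per kilobase (SD, n = 6), and *Hpx*, 2375 ± 578, which did not differ beyond their spread. *Orm1* followed at 1194 ± 179, *Saa1* at 1013 ± 999 and *Saa2* at 539.7 ± 745 CPM per kilobase, and the spread of the last pair was as large as their levels. *Orm2* at 37.8 ± 11.1, *Lcn2* at 21.9 ± 12.8 and *Saa3* at 20.3 ± 28.8 CPM per kilobase were the lowest and were not set apart by their spread. SIRT1intKO livers had the same order, from *Hp* at 2382 ± 508 to *Saa3* at 9.77 ± 2.55 CPM per kilobase (SD, n = 6).

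Untreated WT livers were uneven for serum amyloid A. WT 0-hour replicate 2 was the highest WT liver for 6 of the 8 genes. It had 1769.9 CPM of *Saa1*, 1224 of *Saa2* and 43.8 of *Saa3*, where the other 5 WT livers had 169.7 to 784, 36.6 to 330.0 and 3.28 to 7.31 CPM. *Orm1* was even at 0 hours, with a median of 911 CPM in WT livers (752 to 1097) and 1037 CPM in SIRT1intKO livers (806 to 1165).

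At 6 hours after PHx all 8 genes were higher in both genotypes, and for each gene the highest 0-hour liver lay below the lowest 6-hour liver. A call needed both an adjusted p under 0.05 in the quasi-likelihood test of edgeR, adjusted by Benjamini-Hochberg over the 14980 genes, and an absolute log2 fold change over 1. Of the 8 genes, 8 were called higher in WT and 8 in SIRT1intKO livers, against 7.17% and 7.86% of all genes, while 11.5% and 13.2% of all genes rose without overlap. The share of a library's counts that fell on the 8 genes went from 0.909% ± 0.306 (0.626% to 1.47%, SD, n = 6) to 8.8% ± 2.85 (4.58% to 11.3%, SD, n = 6) in WT livers. In SIRT1intKO livers it went from 0.856% ± 0.167 (0.615% to 1.03%, SD, n = 6) to 7.36% ± 1.7 (5.54% to 10.2%, SD, n = 5).

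**Figure D1:**
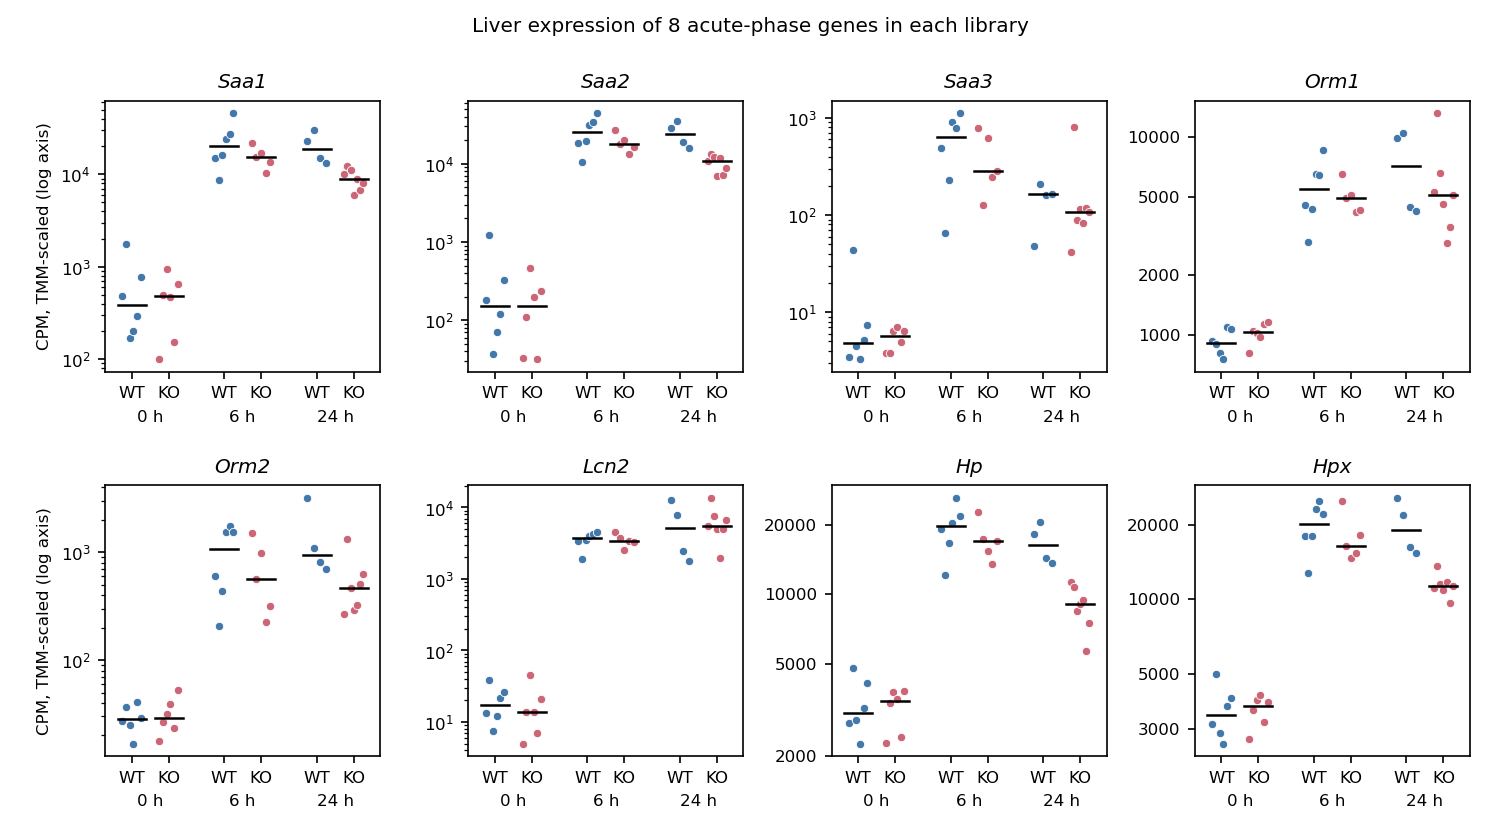
Level of each gene in every liver, in TMM-scaled CPM on a log axis, by genotype and hours after PHx. Points are libraries and black lines are group medians. For each gene all points at 6 and 24 hours lie above all points at 0 hours of that genotype, and at 24 hours the SIRT1intKO points lie below the WT points for *Saa1*, *Saa2*, *Hp* and *Hpx*.

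The serum amyloid genes *Saa2* and *Saa1* became the most abundant of the 8, at 43497 ± 20443 and 37591 ± 21479.6 CPM per kilobase in WT livers at 6 hours (SD, n = 6). *Saa1* went from a median of 387 CPM (169.7 to 1769.9) to 20214 CPM (8741 to 45928) in WT livers, a change of 5.21 log2 units (SE 0.569, edgeR adjusted p = 3.08e-08). In SIRT1intKO livers it went from a median of 481 CPM (99.8 to 940.5) to 21650.3, 15367, 17064, 10255 and 13483 CPM, a change of 5.05 log2 units (SE 0.572, edgeR adjusted p = 7.24e-08). *Saa2*, its neighbor on the chromosome, rose more steeply. Its WT median went from 151 CPM (36.6 to 1224) to 25250.0 CPM (10574 to 44303), a change of 6.33 log2 units (SE 0.739, edgeR adjusted p = 8.93e-08). In SIRT1intKO livers a median of 153 CPM (31.8 to 464) became 27281, 17775, 19883, 13430.4 and 16112 CPM, a change of 6.73 log2 units (SE 0.759, edgeR adjusted p = 7.04e-08). Without WT 0-hour replicate 2 the WT changes were 5.89 for *Saa1* and 7.48 for *Saa2*.

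*Saa3*, which is also made by macrophages and fat cells, stayed far below *Saa1* and *Saa2*. In WT livers it went from a median of 4.86 CPM (3.28 to 43.8) to 635 CPM (65.6 to 1119.9), a change of 5.72 log2 units (SE 0.819, edgeR adjusted p = 2.37e-06). In SIRT1intKO livers a median of 5.69 CPM (3.81 to 7.09) became 786, 128, 618, 244 and 286 CPM, a change of 6.25 log2 units (SE 0.853, edgeR adjusted p = 1.46e-06). Of 3 tested adipocyte markers 2, *Adipoq* (edgeR adjusted p = 0.0129) and *Cfd* (edgeR adjusted p = 0.00568), were called higher in SIRT1intKO livers at 6 hours, against 7.86% of all genes. In WT livers 0 were, against 7.17%. Counts were low, with *Adipoq* at 0 in 20 of the 34 libraries and *Cfd* at 0 in 8. *Pparg*, the remaining marker, was at 0.05 (edgeR adjusted p = 0.874) in SIRT1intKO livers. The 6 markers of the list summed to 39 CPM in SIRT1intKO 6-hour replicate 1, the highest of its group for *Saa3*, and to 2.52 to 11.8 CPM in the other 4. At 24 hours *Adipoq* and *Cfd* were again called higher in SIRT1intKO livers (edgeR adjusted p = 0.0177 and 0.00767), against 11.9% of all genes. The highest sum there, 43.5 CPM, was in replicate 3, where *Saa3* was at 89.5 CPM. The part of adipocytes in these levels was not tested. The lowest 6-hour WT liver for *Saa3*, replicate 2, was the lowest of its group for 8 of the 8 genes, and SIRT1intKO 6-hour replicate 1 was the highest of its group for 8 of the 8. The 8 genes are thus not independent measurements of a liver. *Saa4*, the constitutive gene of the family, was at -0.08 (edgeR adjusted p = 0.889) in WT and -0.17 (edgeR adjusted p = 0.748) in SIRT1intKO livers.

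The alpha-1 acid glycoprotein genes rose by unequal amounts. *Orm1* went from a median of 911 to 5478 CPM (2959 to 8567) in WT livers, 5.99-fold (edgeR adjusted p = 7.32e-08). In SIRT1intKO livers it reached 6470.1, 4941, 5065, 4186 and 4260.3 CPM, 4.86-fold above 0 hours (edgeR adjusted p = 9.42e-07). *Orm2*, at a far lower basal level, rose more. It went from 28.1 CPM (16.7 to 40.6) to 1064 CPM (207 to 1773) in WT livers, 34.7-fold (edgeR adjusted p = 4.89e-08). In SIRT1intKO livers it went from 29.1 CPM (17.6 to 52.3) to 1514, 560.4, 983, 227 and 321 CPM, 22.7-fold (edgeR adjusted p = 4.07e-07). Livers of a group differed by several-fold in *Orm2*. *Orm3*, the neighbor of these genes, was at 9.53 ± 7.48 CPM (SD, n = 6) in WT livers at 6 hours.

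*Lcn2* had the largest fold rise of the 8. It went from a median of 17.5 CPM (7.45 to 39.3) to 3739 CPM (1912 to 4511) in WT livers, a change of 7.49 log2 units (SE 0.618, edgeR adjusted p = 1.46e-10). In SIRT1intKO livers a median of 13.8 CPM (4.97 to 46) became 4524, 3724, 2573, 3446 and 3304 CPM, a change of 7.63 log2 units (SE 0.627, edgeR adjusted p = 2.00e-10). RNA of neutrophils, which store lipocalin 2, stayed low at 6 hours. The summed level of 12 neutrophil markers had a median of 16.5 CPM (7.39 to 23.1) at 0 hours and 15.6 CPM (5.74 to 59.6) at 6 hours in WT livers, and of 9.94 CPM (4.73 to 21.4) and 12.2 CPM (9.52 to 16.8) in SIRT1intKO livers. Of the 7 markers tested, 1 was called higher in WT and 0 in SIRT1intKO livers, against 7.17% and 7.86% of all genes. That was *Mmp8*, at 1.86 log2 units (edgeR adjusted p = 0.0395) in WT and 1.80 (edgeR adjusted p = 0.0794) in SIRT1intKO livers. In each genotype 5 of the 7 estimates lay above 0 and 2 below. Over all times *Camp* was at 0 in 26 of the 34 libraries.

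The scavengers of hemoglobin and heme rose as well. *Hp* went from a median of 3057 CPM (2262 to 4806) to 19725 CPM (12097 to 26190.0) in WT livers, a change of 2.53 log2 units (SE 0.214, edgeR adjusted p = 2.13e-10). *Hpx* went from 3430.0 CPM (2623 to 4989) to 20033 CPM (12712 to 24912), a change of 2.48 log2 units (SE 0.187, edgeR adjusted p = 2.87e-11). In SIRT1intKO livers *Hp* changed by 2.42 log2 units (SE 0.218, edgeR adjusted p = 1.31e-09) and *Hpx* by 2.32 log2 units (SE 0.191, edgeR adjusted p = 2.00e-10).

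Between the genotypes, these genes did not separate at 0 or 6 hours. At 0 hours 0 of the 8 were called, against 0% of all genes, and 0 of the 8 had an unadjusted p under 0.05, against 1.07% (edgeR). At 6 hours these counts were 0 and 0, against 0% and 6.52%. With DESeq2, 6 and 9 genes of the whole table were called, and 0 of the 8. At 6 hours 8 of 8 estimates of SIRT1intKO against WT lay below 0, from -0.56 log2 units for *Saa1* (95% interval -1.58 to 0.47) to -0.03 for *Lcn2* (-1.03 to 0.96). The sign turned for *Orm1* without WT 6-hour replicate 6 (0.01) and for *Lcn2* without SIRT1intKO 6-hour replicate 3 (0.06), and for *Lcn2* with no scaling factors (0.020). Intervals were narrower for *Hp*, -0.60 to 0.26, and *Hpx*, -0.53 to 0.23. At 0 hours *Saa2* was at -0.88 and *Saa3* at -1.06, which became 0.27 and 0.19 without WT 0-hour replicate 2. By the interaction term, which tests whether the change from 0 to 6 hours differs between genotypes, 0 of the 8 were called, against 0% of all genes, and 0 of the 8 had an unadjusted p under 0.05, against 3.05%.

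At 24 hours all 8 genes were still higher than at 0 hours in both genotypes, again with no overlap. Of the 8, 8 were called higher in WT and 8 in SIRT1intKO livers, against 8.32% and 11.9% of all genes. Of all genes, 9.38% and 11% rose without overlap. *Lcn2* again had the largest rise, 8.26 log2 units (SE 0.649, edgeR adjusted p = 3.63e-10) in WT and 8.51 log2 units (SE 0.643, edgeR adjusted p = 4.99e-11) in SIRT1intKO livers. Neutrophil markers were higher as well, but not in all WT livers. Of the 7 tested, 5 were called higher than at 0 hours in WT and 7 in SIRT1intKO livers, against the same 8.32% and 11.9%. Their medians were 2.31 and 4.19 log2 units against 0.02 and 0.04 over all genes. The summed level in WT replicates 3 and 4, 14.9 and 8.91 CPM, lay within the 0-hour WT range of 7.39 to 23.1 CPM. WT replicates 1 and 2 were at 127 and 106 CPM, and SIRT1intKO livers at 23.1 to 959.7 CPM, against 4.73 to 21.4 CPM at 0 hours. *Hp* stood 4.99-fold above its 0-hour level in WT and 2.77-fold in SIRT1intKO livers, and *Hpx* 5.56-fold and 3.2-fold. For *Saa1* these folds were 32.9 and 19.2, for *Saa2* 75.4 and 56.9, for *Orm2* 49.7 and 17.3, and for *Orm1* 7.84 and 5.73. *Saa3* ran the other way, 12.9-fold in WT and 35.9-fold in SIRT1intKO livers. Its WT change of 3.69 log2 units was 4.94 without WT 0-hour replicate 2, and its SIRT1intKO change of 5.16 was 4.09 without SIRT1intKO 24-hour replicate 2.

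The genotypes separated at 24 hours for *Hp* and *Hpx*. *Hp* was at 18278, 20605, 14310.1 and 13631 CPM in the 4 WT livers and had a median of 9051 CPM (5698 to 11247) in the 7 SIRT1intKO livers, all of which lay below all WT livers. The difference was -0.91 log2 units (SE 0.215, edgeR adjusted p = 0.0147), with a 95% interval of -1.35 to -0.48, short of the fold threshold of a call. *Hpx* was at 25684, 21890.0, 16251 and 15351 CPM in the WT livers and had a median of 11349.8 CPM (9669 to 13557) in the SIRT1intKO livers, again without overlap. Its difference was -0.79 log2 units (SE 0.189, edgeR adjusted p = 0.0151), with a 95% interval of -1.18 to -0.41. Of the 8 genes, 0 were called between genotypes, against 2.68% of all genes, and 2 were lower at an adjusted p under 0.05, against 3.51%. *Hp* passed the fold threshold without WT 24-hour replicate 3, at -1.01 (edgeR adjusted p = 0.0112), and also without SIRT1intKO 24-hour replicate 1 (adjusted p = 0.0128). *Hp* and *Hpx* lost the adjusted p threshold when only the WT and SIRT1intKO 24-hour libraries were fitted, with an edgeR adjusted p of 0.257 for *Hp* and 0.259 for *Hpx*, and *Hpx* did so at 0.0569 when the filter on low counts was dropped. Without the 4 libraries of unusual scaling *Hp* was at -0.75 (edgeR adjusted p = 0.0389) and *Hpx* at -0.73 (edgeR adjusted p = 0.0301).

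**Figure D2:**
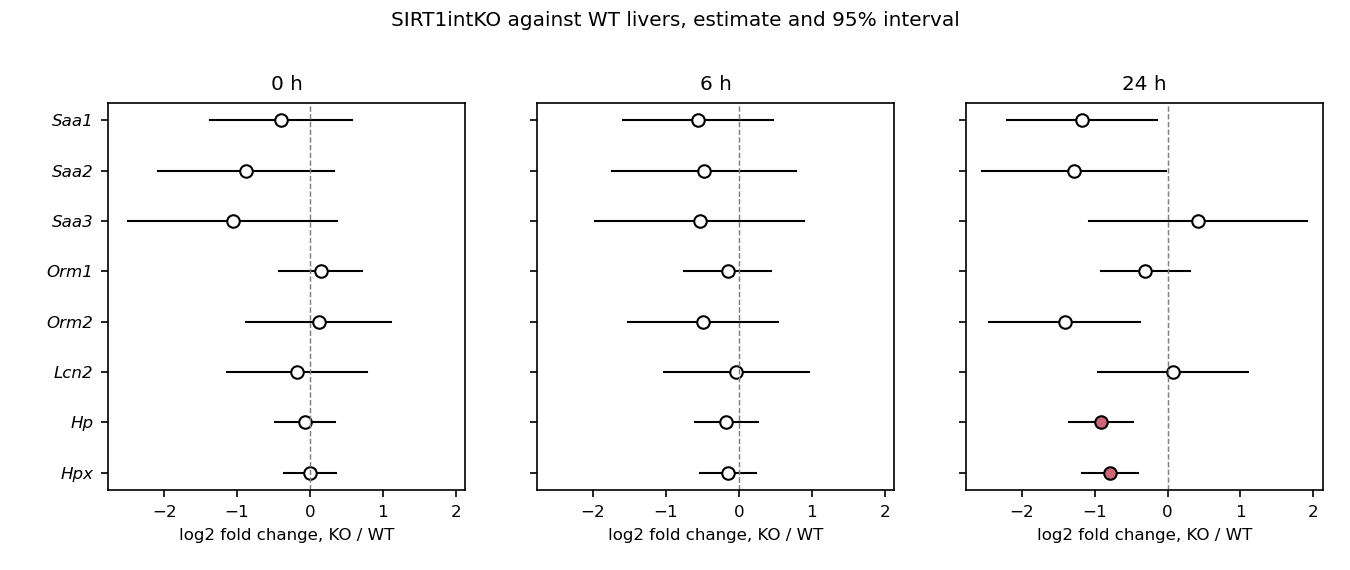
Log2 fold change of SIRT1intKO against WT livers for each gene before and at 6 and 24 hours after PHx, with 95% intervals from the edgeR fit. Filled points have an adjusted p under 0.05, which holds for *Hp* (-0.91) and *Hpx* (-0.79) at 24 hours. The 24-hour intervals of *Saa3*, *Orm1* and *Lcn2* cross 0.

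*Saa1* and *Saa2* were likewise lower in each SIRT1intKO liver than in each WT liver at 24 hours, but with a larger scatter. *Saa1* was at 22922, 29929.9, 14937 and 13412 CPM in WT livers and had a median of 8815 CPM (5989 to 12302) in SIRT1intKO livers. The difference was -1.17 log2 units (SE 0.504, edgeR adjusted p = 0.152), with a 95% interval of -2.20 to -0.15. *Saa2* was at 28737, 35278, 18685 and 15921 CPM in WT livers and had a median of 10722 CPM (6935 to 13344) in SIRT1intKO livers, a difference of -1.28 log2 units (SE 0.62, edgeR adjusted p = 0.206). Groups did not overlap for 4 of the 8 genes, *Saa1*, *Saa2*, *Hp* and *Hpx*, each with SIRT1intKO lower, against 1.05% of all genes. An unadjusted p under 0.05 was found for 5 of the 8, these and *Orm2*, against 23.4% of all genes.

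*Orm2* had the largest estimate of the 8 between genotypes at 24 hours, without passing the test. It was at 3225, 1094, 808 and 698 CPM in WT livers and had a median of 471 CPM (270.5 to 1339) in SIRT1intKO livers, which overlapped. The difference was -1.41 log2 units (SE 0.508, edgeR adjusted p = 0.0882), with a 95% interval of -2.44 to -0.37. Without SIRT1intKO 24-hour replicate 2 it was -1.81 (edgeR adjusted p = 0.0404), and without WT 24-hour replicate 1 it was -0.69 (edgeR adjusted p = 0.433).

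*Orm1*, *Lcn2* and *Saa3* did not separate by genotype at 24 hours. *Orm1* was at 9949, 10433, 4405 and 4246 CPM in WT livers and had a median of 5083 CPM (2897 to 13228) in SIRT1intKO livers, a difference of -0.31 (edgeR adjusted p = 0.571) with a 95% interval of -0.92 to 0.31, or 0.047 without the 4 libraries of unusual scaling. *Lcn2* was at 12583, 7802, 2442 and 1789 CPM in WT livers and had a median of 5561 CPM (1952 to 13756) in SIRT1intKO livers. The difference was 0.08 (edgeR adjusted p = 0.945) with a 95% interval of -0.95 to 1.11, so a 2-fold higher level is within the interval. *Saa3* was at 47.6, 209, 162 and 165 CPM in WT livers, at 41.3 to 118 CPM in 6 of the 7 SIRT1intKO livers and at 809 CPM in replicate 2. Its difference of 0.42 (edgeR adjusted p = 0.772) became -0.67 without that liver.

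Neutrophil RNA and *Lcn2* were highest in the same SIRT1intKO liver and ranked alike in the WT livers at 24 hours. SIRT1intKO 24-hour replicate 2 was the highest of its group for 7 of the 8 genes and had a neutrophil marker sum of 959.7 CPM, against 23.1 to 213 CPM in the other 6. In the 4 WT livers the neutrophil sum was 127, 106, 14.9 and 8.91 CPM, in the order of replicates in which *Lcn2* was at 12583, 7802, 2442 and 1789 CPM. *Hpx* and *Orm2* fell in that same order over these 4 livers, so the match was not particular to *Lcn2*. The part of neutrophils in the *Lcn2* and *Saa3* levels was not tested.

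The 8 genes together took 9.57% ± 2.52 (7.21% to 12.1%, SD, n = 4) of the counts in WT livers at 24 hours and 5.73% ± 0.627 (4.74% to 6.61%, SD, n = 7) in SIRT1intKO livers, and these ranges did not overlap. *Saa2* alone took 2.44% and 1.11%, *Saa1* 2.01% and 0.985%, *Hpx* 1.98% and 1.27%, and *Hp* 1.67% and 0.973% as group means. *Lcn2* took 0.602% and 0.691%.

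**Figure D3:**
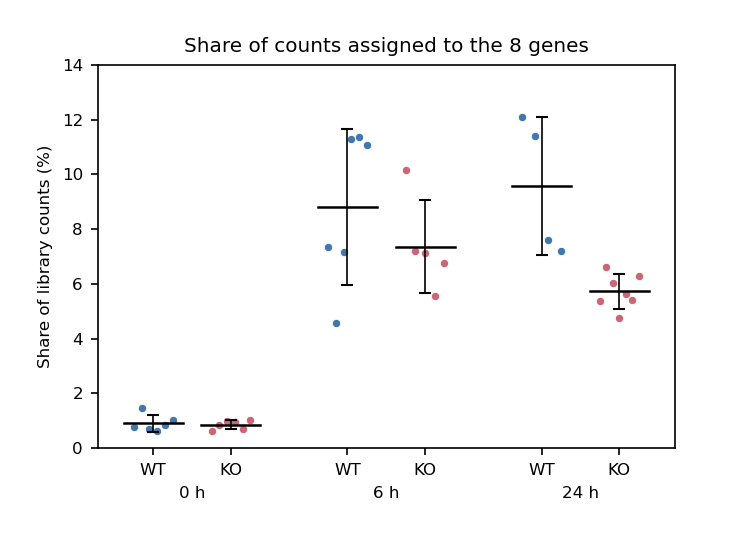
Share of each library's counts, in percent, that fell on the 8 genes, by genotype and hours after PHx. Points are libraries, with the group mean and SD. The share lies at 0.626% to 1.47% in WT livers at 0 hours, and at 24 hours at 4.74% to 6.61% in SIRT1intKO and 7.21% to 12.1% in WT livers.

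From 6 to 24 hours, within a single library series, most of these transcripts showed no change past the threshold in WT livers. Of the 8, 0 were called by edgeR, against 7.16% of all genes, and 1 by DESeq2. That was *Saa3*, the 1 gene of the 8 with an unadjusted p under 0.05 (all genes, 30.2%). *Saa3* went from a median of 635 to 164 CPM with overlap, -2.03 log2 units (SE 0.804, edgeR adjusted p = 0.0796), or an adjusted p of 0.0403 by DESeq2. Without WT 0-hour replicate 2, which enters through the shared fit, edgeR called it too (adjusted p = 0.0424), as it did without SIRT1intKO 24-hour replicate 2 (adjusted p = 0.0378). The other 7 ran from -0.21 log2 units for *Hp* to 0.77 for *Lcn2*, with *Hpx* at -0.0016 (95% interval -0.41 to 0.40).

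In SIRT1intKO livers *Hp* and *Hpx* fell between 6 and 24 hours. *Hp* went from 22664, 17303, 15463, 13519.8 and 17057 CPM to a median of 9051 CPM (5698 to 11247) without overlap, a change of -0.95 log2 units (SE 0.203, edgeR adjusted p = 0.000874). *Hpx* went from 24887, 16373, 14618, 15339 and 18116 CPM to a median of 11349.8 CPM (9669 to 13557), also without overlap, a change of -0.65 log2 units (SE 0.178, edgeR adjusted p = 0.00759). *Hp* passed the fold threshold without SIRT1intKO 6-hour replicate 4, at -1.02 (edgeR adjusted p = 0.00135), or without SIRT1intKO 24-hour replicate 1, at -1.01 (edgeR adjusted p = 0.000793). *Hpx* lost the adjusted p threshold without SIRT1intKO 6-hour replicate 1, at -0.48 (edgeR adjusted p = 0.0519), and with no scaling factors, at -0.38 (edgeR adjusted p = 0.0863). Of the 8, 0 were called, against 10.6% of all genes, and 2 were lower at an adjusted p under 0.05, against 14.4%, the same 2 having an unadjusted p under 0.05, against 39.7% in either direction. Groups did not overlap for 3, *Hp*, *Hpx* and *Saa2*, against 5.01% of all genes that were lower without overlap. *Saa2* was at -0.90 log2 units (SE 0.588, edgeR adjusted p = 0.26) and *Saa1* at -0.79 log2 units (SE 0.478, edgeR adjusted p = 0.221), and both passed, at -0.88 (edgeR adjusted p = 0.0216) and -0.77 (edgeR adjusted p = 0.0387), when only these groups were fitted. *Saa3* was at -1.08 (edgeR adjusted p = 0.23), or -2.14 (edgeR adjusted p = 0.0104) without SIRT1intKO 24-hour replicate 2.

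Interaction terms tested whether these changes differed between genotypes, and 0 of the 8 had an adjusted p under 0.05. From 0 to 24 hours the term was -0.85 for *Hp* (SE 0.296, unadjusted p = 0.00734, edgeR adjusted p = 0.235). It was -0.80 for *Hpx* (SE 0.26, unadjusted p = 0.00441, edgeR adjusted p = 0.211) and -1.53 for *Orm2* (SE 0.706, unadjusted p = 0.0383, edgeR adjusted p = 0.36). These 3 had an unadjusted p under 0.05, against 12.7% of all genes, and 0.00668% of all genes were called. From 6 to 24 hours it was -0.74 for *Hp* (unadjusted p = 0.0202, edgeR adjusted p = 0.175) and -0.65 for *Hpx* (unadjusted p = 0.0212, edgeR adjusted p = 0.178). These 2 had an unadjusted p under 0.05, against 19.7% of all genes, and 0.334% of all genes were called. *Hp* and *Hpx* were thus lower in SIRT1intKO livers at 24 hours in the fit of all libraries, short of a call. A difference in response did not pass correction, which does not show that the responses were alike.

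**Figure D4:**
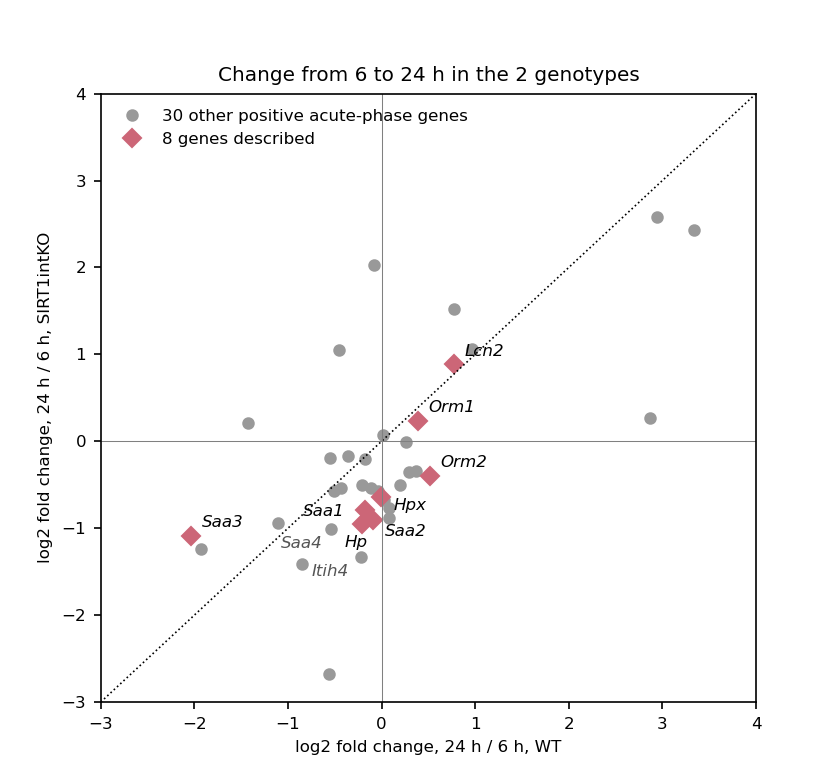
Log2 fold change from 6 to 24 hours after PHx in WT livers (horizontal) and SIRT1intKO livers (vertical) for the 8 genes (diamonds) and 30 other acute-phase genes (gray). The dotted line marks equal change. *Hp* (-0.21 and -0.95) lies below it, while *Lcn2* (0.77 and 0.89) lies close to it.

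Within a library, both pairs of neighboring paralogs shifted toward the less abundant gene after PHx, a measure that does not depend on depth or scaling. The log2 ratio of *Saa2* to *Saa1* counts was -1.37 ± 0.541 at 0 hours in WT livers (SD, n = 6), 0.24 ± 0.15 at 6 hours (SD, n = 6) and 0.28 ± 0.0477 at 24 hours (SD, n = 4). In SIRT1intKO livers it went from -1.64 ± 0.505 (SD, n = 6) to 0.28 ± 0.077 (SD, n = 5) and 0.17 ± 0.111 (SD, n = 7). *Saa2* thus went from the minor to the major transcript of the pair. Each of the 4 changes from 0 hours separated the groups (two-sided exact permutation tests, p = 0.000583 to 0.00476, adjusted p = 0.00649 to 0.0107 over 18 ratio tests). The genotypes overlapped in this ratio, with an exact permutation p of 0.413 at 0 hours, 0.768 at 6 hours and 0.0818 at 24 hours (adjusted p = 0.572, 0.814 and 0.134). Without SIRT1intKO 24-hour replicate 5 the 24-hour difference was -0.15 and its exact permutation p, unadjusted, was 0.00476. That is the smallest p that 4 against 6 livers can give, and the liver left out is the 1 that stood apart in its group.

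The ratio of *Orm2* to *Orm1* moved the same way. Its log2 value was -5.02 ± 0.319 at 0 hours, -2.75 ± 0.754 at 6 hours and -2.48 ± 0.67 at 24 hours in WT livers (SD, n = 6, 6 and 4). In SIRT1intKO livers it was -5.09 ± 0.46, -3.11 ± 0.89 and -3.47 ± 0.555 (SD, n = 6, 5 and 7). By 24 hours the counts of *Orm2* per count of *Orm1* had grown from 0.0307 to 0.179 in WT and from 0.0294 to 0.0902 in SIRT1intKO livers (exact permutation p = 0.00476 and 0.00117, adjusted p = 0.0107 and 0.00649). At 24 hours the genotypes differed by -0.99 (exact permutation p = 0.0273, adjusted p = 0.0545), or by -0.70 without WT 24-hour replicate 1. Paralogs can share reads. *Saa1* and *Saa2* transcripts are 93.9% identical with a longest shared run of 99 bases, so 0 windows of the 100-base read length are shared. *Orm1* and *Orm2* are 91.0% identical and share 6.95% of such windows, where the counting could have split reads between them.

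**Figure D5:**
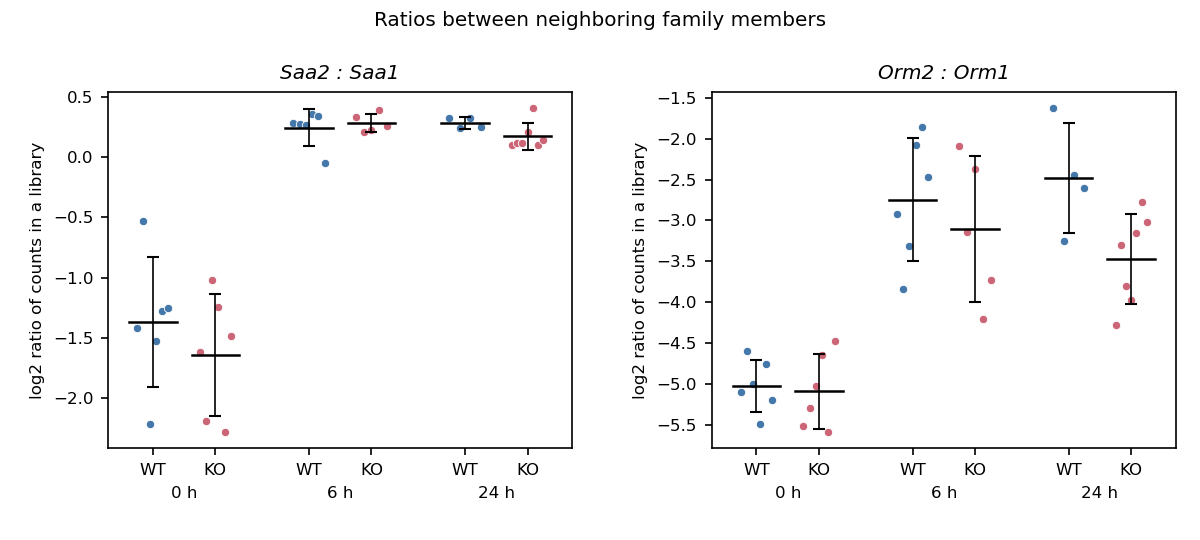
Log2 ratio of *Saa2* to *Saa1* counts and of *Orm2* to *Orm1* counts in each library, by genotype and hours after PHx. Points are libraries, with the group mean and SD. In either pair the 0-hour points of a genotype lie below its points after PHx, from WT means of -1.37 and -5.02 at 0 hours.

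Most other acute-phase genes of the liver were higher as well. Of 30 further positive acute-phase genes, mostly of plasma proteins but also of cell proteins such as *Steap4*, *Mt1* and *Mt2*, 23 were called higher and 1 lower in WT livers at 6 hours, against 7.17% and 8.4% of all genes, with a median of 2.07 log2 units against 0.02 over all genes. In SIRT1intKO livers 22 were called higher and 1 lower (median 1.87), against 7.86% and 8.7% of all genes. Among the highest in WT livers were *A2m*, a protease inhibitor, at 6.46 (edgeR adjusted p = 1.61e-05), and the apolipoprotein gene *Apoa4* at 4.49 (edgeR adjusted p = 2.89e-08). *Hamp2*, a relative of hepcidin, was at -2.42 (edgeR adjusted p = 0.000924), and *Crp*, a weak reactant in mice, at -0.19 (edgeR adjusted p = 0.717). At 24 hours 22 were called higher in WT and 23 in SIRT1intKO livers, against 8.32% and 11.9% of all genes. Among the highest of the latter were *Il1rn*, the interleukin 1 receptor antagonist gene, at 6.08 (edgeR adjusted p = 2.27e-06) and the lipopolysaccharide co-receptor gene *Cd14* at 6.02 (edgeR adjusted p = 1.85e-06). *Saa4* was then lower, at -1.18 (edgeR adjusted p = 0.0055).

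Between genotypes at 24 hours, 6 of these 30 were lower in SIRT1intKO livers at an adjusted p under 0.05 and 0 were higher, against the 3.51% above and 2.3% of all genes. They encode inter-alpha-trypsin inhibitor chains (*Itih3*, *Itih4*), fibrinogen chains (*Fga*, *Fgg*) and complement components (*C3*, *C4b*). *Itih4* was called, at 7359.7 ± 1399.6 CPM (SD, n = 4) in WT and 3502 ± 696 CPM (SD, n = 7) in SIRT1intKO livers, a difference of -1.07 log2 units (SE 0.177, edgeR adjusted p = 0.00195). It was the 1 gene of the 30 whose change from 6 to 24 hours differed between genotypes, by -1.11 log2 units (SE 0.249, edgeR adjusted p = 0.0382). *Fga* was at -0.86 (edgeR adjusted p = 0.0213), *Fgg* at -0.73 (edgeR adjusted p = 0.045), *Itih3* at -0.70 (edgeR adjusted p = 0.033), *C3* at -0.61 (edgeR adjusted p = 0.0243) and *C4b* at -0.64 (edgeR adjusted p = 0.0147). The median of the 30 was -0.37 against -0.02 over all genes.

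Of 16 genes listed as falling in the acute phase, nearly all of plasma proteins, 1 was called lower in WT livers at 6 hours, against 8.4% of all genes. That was the insulin-like growth factor carrier gene *Igfals*, at -2.23 (edgeR adjusted p = 0.00197). Of the 16 estimates 10 lay below 0 and 6 above, with *Ahsg* the highest at 0.54 (edgeR adjusted p = 0.000991). At 24 hours 3 were called lower in WT and 3 in SIRT1intKO livers, against 7.4% and 11.1% of all genes. The latter were *Serpina6*, the corticosteroid-binding globulin gene, at -4.17 (edgeR adjusted p = 7.63e-06), *Igfals* at -3.01 (edgeR adjusted p = 3.42e-05) and the carboxylesterase gene *Ces1c* at -1.53 (edgeR adjusted p = 6.47e-06). In SIRT1intKO livers at 24 hours 13 of the 16 estimates lay below 0 and 3 above. The highest were *Ahsg* at 0.52 (edgeR adjusted p = 0.00072) and *Trf* at 0.40 (edgeR adjusted p = 0.0386). Between genotypes at 24 hours *Serpina6* was called lower in SIRT1intKO livers, at -2.81 (edgeR adjusted p = 0.0161). *Alb*, the albumin gene, was higher there, 34995 ± 9414 CPM (SD, n = 7) against 19422 ± 4119 CPM (SD, n = 4) in WT livers, a difference of 0.85 log2 units (SE 0.231, edgeR adjusted p = 0.0278). *Rbp4* was also higher and *Fetub* and *Tfr2*, a receptor gene of the hepatocyte membrane, were lower at an adjusted p under 0.05. Summed over 10 hepatocyte markers, *Alb* among them, SIRT1intKO livers at 24 hours had a median of 49957 CPM (37338 to 66599.5) and WT livers of 33456 CPM (28738 to 40352). *Alb* made up most of this sum. Of the other 9 markers *F2*, the prothrombin gene, was lower in SIRT1intKO livers, at -0.51 (edgeR adjusted p = 0.0102), and the median of the 10 was 0.07. The part of hepatocyte number in the *Hp* and *Hpx* levels was not tested.

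Among 24 tested cytokines, receptors and transcription factors that act upstream, 3 were lower in SIRT1intKO livers at 24 hours at an adjusted p under 0.05 and 0 were higher, against 3.51% and 2.3% of all genes. *Cebpa*, the gene of a C/EBP factor of mature hepatocytes, was at 168 ± 53.7 CPM (SD, n = 4) in WT and 64.9 ± 34.9 CPM (SD, n = 7) in SIRT1intKO livers, a difference of -1.37 log2 units (SE 0.301, edgeR adjusted p = 0.0103). *Stat3* was at 246 ± 79.3 CPM (SD, n = 4) and 148 ± 31.2 CPM (SD, n = 7), a difference of -0.73 log2 units (SE 0.184, edgeR adjusted p = 0.0206). *Lifr*, the leukemia inhibitory factor receptor gene, was at -0.91 (edgeR adjusted p = 0.0465). At 6 hours 4 of the 24 were called higher in WT and 5 in SIRT1intKO livers, against 7.17% and 7.86% of all genes. In WT livers the highest were the interleukin 1 receptor gene *Il1r1* at 1.86 (edgeR adjusted p = 1.15e-05), *Cebpd* at 1.48 (edgeR adjusted p = 0.000855) and the oncostatin M receptor gene *Osmr* at 1.47 (edgeR adjusted p = 0.000659). *Il6* was at -0.83 (edgeR adjusted p = 0.55) in WT and -0.27 (edgeR adjusted p = 0.872) in SIRT1intKO livers at 6 hours, and at 2.22 (edgeR adjusted p = 0.0303) in SIRT1intKO livers at 24 hours. Its mean level was under 1 CPM, so these changes rest on few counts.

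Of 14 receptors and partners of the 8 proteins, 3 were called higher and 1 was lower at an adjusted p under 0.05 in SIRT1intKO livers at 24 hours, against 1.38% and 3.51% of all genes. *Fpr2*, *Fpr1* and *Tlr2*, receptor genes of myeloid cells, some of which respond to serum amyloid A, rose by 2.71 (edgeR adjusted p = 0.0341), 2.25 (edgeR adjusted p = 0.0474) and 3.10 (edgeR adjusted p = 0.022) against WT. *Lrp1*, the hemopexin receptor gene, was at -0.64 (edgeR adjusted p = 0.0181). *Cd163*, the haptoglobin receptor gene, was at 0.73 (edgeR adjusted p = 0.185), and *Hmox1*, whose product degrades heme, at 0.62 (edgeR adjusted p = 0.477). Some myeloid markers were higher as well. Of 10 monocyte and macrophage markers 3 were called higher in SIRT1intKO livers, against the same 1.38%, namely *Ccr2*, *Marco* and *Lyz2*, with summed medians of 204 CPM (92.8 to 449) against 95.4 CPM (69.9 to 127) in WT livers. Of 7 tested neutrophil markers 1 was called higher, *Csf3r*, against that same share, with summed medians of 100.2 CPM (23.1 to 959.7) against 60.5 CPM (8.91 to 127). Of the 7 estimates 6 lay above 0 and 1 below, *Ngp* at -2.21 (edgeR adjusted p = 0.0742). The part of these cells in the levels of *Fpr1*, *Fpr2*, *Tlr2*, *Saa3* and *Lcn2* was not tested. Of the remaining marker lists, 0 of 3 tested adipocyte, 0 of 4 cholangiocyte and 0 of 5 red cell markers were higher at an adjusted p under 0.05 and 0 were lower. *Fabp2*, 1 of 2 tested genes of the intestinal list, was called higher at 1.46 (edgeR adjusted p = 0.028). It had 377 to 4180 counts over the 34 libraries, untreated livers included, while *Vil1* and *Muc2* of that list reached at most 21 and 5 counts. The sum of the list was highest in SIRT1intKO 24-hour replicate 2, at 308 CPM. The source of the *Fabp2* RNA was not tested.

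The genes with the most similar course were found by the root mean square difference of log2 CPM over the 6 group means, each centered, among 11694 candidates. *Tacc2*, which encodes a coiled-coil protein of the centrosome, was nearest to *Hp* (0.0988) and *Hpx* (0.0786), nearer than these were to each other (0.121). It was at 23.4 ± 6.93 CPM (SD, n = 6) in WT livers at 0 hours, 144 ± 34.3 CPM (SD, n = 6) at 6 hours and 128 ± 21.8 CPM (SD, n = 4) at 24 hours, and at 77.5 ± 43.3 CPM (SD, n = 7) in SIRT1intKO livers at 24 hours. *Saa1* and *Orm2* were nearer to each other (0.404) than to any candidate, the nearest being the metallothionein gene *Mt2* for *Saa1* (0.453) and the adenylyl cyclase gene *Adcy1* for *Orm2* (0.446). *Bmper* was nearest to *Saa3* (0.352) and *Mrap* to *Orm1* (0.193).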

How the data were processed

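Liver RNA-seq of 34 libraries in 6 groups of genotype and time was analysed, grouped by the labels. The deposited table holds expected counts, which the authors obtained from Salmon after STAR alignment (nf-core pipeline, GRCm39 per the labels) without normalization. Versions and the annotation are not given in the sources used here. Of 35 columns, 1 matched no sample and was not used. The letter x is missing from the gene symbols of the table, which was put back by gene ID from GENCODE vM21 for 1316 symbols (705 among tested genes).

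Counts, 4.97% of which were not whole, were rounded. Using edgeR 4.0.16 (R 4.3.3), TMM factors were computed, 14980 genes passed filterByExpr, and a quasi-likelihood model with 1 mean per group was fitted to all 34 libraries. The comparisons were each time against 0 hours and 24 against 6 hours within a genotype, SIRT1intKO against WT at each time, and the interactions. Adjusted p-values are Benjamini-Hochberg over all genes tested. Log2 ratios of paralog counts, with a pseudocount of 0.5, were compared by two-sided exact permutation tests. Lengths per gene came from 1 annotated transcript each. No 2 libraries of a group agreed within counting noise. Livers are taken as separate animals, and p-values measure only the spread between these libraries. On simulated counts for SIRT1intKO against WT at 24 hours (14576 genes), 36 of 100 genes changed 2-fold and 76 of 100 changed 4-fold were called. A 2-fold change lies on the fold threshold of a call, so the 36 is set largely by that threshold and does not measure sensitivity. Of the unchanged genes 5 were called. Only 200 genes were changed in the simulation, fewer than were called after PHx in these livers. With DESeq2 1.42.0 and other scalings, filters and models, the results were recomputed, as they were without each library. Libraries sharing a replicate number did not deviate together (median r -0.0036 over 76 pairs, 6 above 0.1).

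The 8 genes and the lists were chosen with earlier results of these data known. Named genes are the 8, *Saa4* and *Orm3*, the 3 highest and 3 lowest of a pathway list in WT at 6 hours and SIRT1intKO at 24 hours (mean of at least 1 CPM), list genes called between genotypes or by an interaction, and the nearest gene to each of the 8. *Cd163*, *Hmox1* and *Il6* in other comparisons and the list genes past the adjusted p alone were named after their values were seen. Some results under this rule are not reported here.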

Additional observations from a re-analysis of the deposited data

Results flagged for a closer look

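In 8 of 66 groups of 4 to 7 livers examined, the highest or lowest liver stood apart from the rest by Dixon's criterion at 95%. For independent, normally distributed values about 1 group in 20 would do so. CPM values can be skewed and the genes of a liver are not independent, so that rate does not hold strictly here. Of these, 2 were from WT 0-hour replicate 2, with 1224 CPM of *Saa2* (others 36.6 to 330.0) and 43.8 CPM of *Saa3* (others 3.28 to 7.31). A further 3 were from SIRT1intKO 24-hour replicate 2, with 809 CPM of *Saa3* (others 41.3 to 118), 13228 CPM of *Orm1* (others 2897 to 6556) and 1339 CPM of *Orm2* (others 270.5 to 629). WT 24-hour replicate 1 had 3225 CPM of *Orm2* (others 698 to 1094). In the log2 ratio of *Saa2* to *Saa1*, WT 6-hour replicate 6 was at -0.052 (others 0.265 to 0.357) and SIRT1intKO 24-hour replicate 5 at 0.407 (others 0.101 to 0.211). Both of these last libraries had a TMM factor outside 0.8 to 1.2, at 0.740 and 1.21, which does not enter a ratio within a library.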

How the results depend on the processing

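The 8 genes kept their rise from 0 hours, and their calls, under all alternatives and without each library. Called genes among the 8 went from 0 to 1 in WT livers between 6 and 24 hours with DESeq2, and, with no fold threshold, from 0 to 2 in SIRT1intKO livers between 6 and 24 hours and to 2 between genotypes at 24 hours. *Hpx* between 6 and 24 hours in WT livers, at -0.0016, turned to 0.00095 with DESeq2 and with DESeq2 size factors, 0.0017 with scaling factors set without the 8 genes, 0.026 with unrounded counts, 0.011 with the replicate block and 0.0086 when only the compared groups were fitted. Alternatives chosen after seeing the data were no scaling factors, under which *Saa1* turned to 0.0080, *Saa2* to 0.068 and *Hpx* to 0.15 in that comparison, *Hpx* to -0.025 between genotypes at 0 hours and *Lcn2* to 0.020 at 6 hours, and leaving out the 4 libraries with TMM factors outside 0.8 to 1.2. Without these, *Saa1* was at 0.15, *Saa2* at 0.12 and *Hpx* at 0.034 between 6 and 24 hours in WT livers, *Lcn2* at 0.025 and *Orm1* at 0.047 between genotypes at 6 and 24 hours, *Saa1* at 0.13 in the interaction at 6 hours and *Orm1* at 0.051 in that from 6 to 24 hours. The cause was not tested. Adjusted p-values for *Hp* and *Hpx* between genotypes at 24 hours ran from 0.0019 to 0.257 and from 0.0017 to 0.259 over 11 alternatives.

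Livers share only a replicate number across groups. The replicate block changed no call among the 8 (*Hp* 0.04998 and *Hpx* 0.0473 as adjusted p between genotypes at 24 hours), and over all genes moved calls between genotypes at 24 hours from 402 to 168 (561 with DESeq2, 875 without the 4 libraries, 0 with a test against the fold threshold itself) and in WT livers between 6 and 24 hours from 1073 to 771. For the interactions at 24 hours and from 6 to 24 hours, 1 and 50 genes were called, 90 and 301 with DESeq2, 0 and 0 with the replicate block, under which *Itih4* was thus not called, and 268 and 182 without the 4 libraries.

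Leaving out each library in turn turned a sign, crossed a threshold or moved a value for these results. In WT livers, 24 against 6 hours the lowest and highest values were called genes among the 8 0 to 1, *Saa1* -0.40 to 0.14, *Saa2* -0.30 to 0.11, *Saa3* -2.24 to -1.71, *Orm2* -0.19 to 0.78, *Hpx* -0.12 to 0.11, the *Saa2* to *Saa1* ratio -0.021 to 0.061, the *Orm2* to *Orm1* ratio -0.022 to 0.52, the share of counts (percent) -0.070 to 1.56. In SIRT1intKO livers, 24 against 6 hours the lowest and highest values were called genes among the 8 0 to 1, *Saa3* -2.14 to -0.70, *Orm1* -0.082 to 0.37, *Orm2* -0.77 to 0.089, *Hp* -1.02 to -0.82, the *Saa2* to *Saa1* ratio -0.15 to -0.084, the share of counts (percent) -2.08 to -0.93. In SIRT1intKO against WT at 0 hours the lowest and highest values were *Saa1* -0.72 to 0.28, *Saa2* -1.44 to 0.27, *Saa3* -1.25 to 0.19, *Orm2* -0.082 to 0.24, *Lcn2* -0.73 to 0.13, *Hp* -0.15 to 0.067, *Hpx* -0.071 to 0.12, the *Orm2* to *Orm1* ratio -0.19 to 0.033, the share of counts (percent) -0.11 to 0.059. In SIRT1intKO against WT at 6 hours the lowest and highest values were *Orm1* -0.28 to 0.013, *Lcn2* -0.16 to 0.059, the *Saa2* to *Saa1* ratio -0.022 to 0.060. In SIRT1intKO against WT at 24 hours the lowest and highest values were called genes among the 8 0 to 1, *Saa3* -0.67 to 0.64, *Orm2* -1.81 to -0.69, *Lcn2* -0.23 to 0.66, *Hp* -1.01 to -0.80, the *Saa2* to *Saa1* ratio -0.15 to -0.098, the *Orm2* to *Orm1* ratio -1.25 to -0.70. In the interaction at 6 hours the lowest and highest values were *Saa1* -0.84 to 0.17, *Saa2* -0.75 to 0.96, *Saa3* -0.73 to 0.80, *Lcn2* -0.17 to 0.69. In the interaction at 24 hours the lowest and highest values were *Saa2* -1.55 to 0.15, *Lcn2* -0.062 to 0.83. In the interaction from 6 to 24 hours the lowest and highest values were *Saa3* -0.13 to 1.30, *Orm1* -0.50 to 0.072, *Lcn2* -0.20 to 0.70. With 4 WT livers at 24 hours, 1 liver can set a value there.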
